A study of Homo sapiens with 6 samples.

Results

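Antigen processing and presentation genes were examined as a set of 31 genes, given by symbol: the MHC class I and class II molecules, the machinery that loads peptides onto them, the immunoproteasome and the transcription factors of the pathway. All 31 were found among the 59715 genes of the count table, and 27 had enough counts to be tested. The cells were HCT116, an established human colorectal carcinoma line, and the RNA was poly(A)-selected total RNA. The first group was labelled MLL4KO (3 libraries of HCT116 cells with the histone H3K4 methyltransferase MLL4 knocked out) and the second MLL4WT (3 libraries of wild-type HCT116 cells). Both were grown in the same serum-supplemented medium, and the labels name no treatment for either. Neither separate cultures nor the number of knockout clones are stated in the labels, so the p-values measure the spread between these libraries, which may be technical.

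MHC class I molecules present peptides from inside the cell to CD8+ T cells. Proteins are cut by the proteasome, whose catalytic subunits can be exchanged for those of the immunoproteasome. The TAP transporter carries the peptides into the endoplasmic reticulum, where they are trimmed and loaded onto a heavy chain paired with beta-2-microglobulin. MHC class II molecules, normally a property of professional antigen-presenting cells, carry peptides from the endosome and depend on CIITA. NLRC5 plays the corresponding part for class I, and both coactivators are brought to MHC promoters by the RFX complex of RFX5, RFXAP and RFXANK. Many genes of the pathway are induced by interferon.

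Library totals were 14775580 to 19736751 counts in MLL4KO and 6829400 to 17828774 in MLL4WT. The shallowest, MLL4WT replicate 1, also differed most from the other libraries of its genotype, where the chi-square statistic divided by its degrees of freedom was 7.61 and 7.58, against 1.80 to 2.48 for the other pairs. The knockout itself could not be checked here, since KMT2D, the usual meaning of MLL4 in human cells, averaged 232 ± 9.56 CPM (counts scaled for library size; mean ± SD, n = 3) in MLL4KO and 235 ± 4.60 CPM in MLL4WT (edgeR adjusted p = 0.832), and gene-level counts cannot reveal a deletion of a few bases or exons. KMT2B, to which the name MLL4 has also been given, averaged 63.2 ± 3.45 CPM in MLL4KO and 90.5 ± 3.44 CPM in MLL4WT (edgeR adjusted p = 2.33e-05). Of 8 epithelial markers, VIL1 had too few counts to test, with 11 over the MLL4KO libraries and 21 over the MLL4WT libraries. Of the 7 tested, 5 were lower, where 21.6% of all tested genes were. CDH1 and CDX2 did not pass (edgeR adjusted p = 0.864 and 0.341). The summed level of the list was 1116 to 1139 CPM in MLL4KO and 1686 to 1748 CPM in MLL4WT. The part of these markers in the results was not tested.

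The cells labelled MLL4KO differed from MLL4WT cells in both directions inside the pathway. By the edgeR quasi-likelihood test at an adjusted p under 0.05, 8 of the 27 tested genes rose in MLL4KO cells, 6 fell and 13 did not pass. The 14 called genes were 51.9% of those tested, against 41.4% of all 14543 tested genes called in either direction (19.8% higher and 21.6% lower). The median log2 fold change of the 27 genes was 0.03, beside 0.00 for all tested genes. The genotypes did not overlap in 16 of the 27 genes, where 52.5% of all tested genes did not overlap. Only HLA-DMB, HLA-DRA, PSMB9, PSMB10 and HLA-DMA were called with a change past 1.5-fold, 5 of 27 or 18.5%, beside 11.9% of all tested genes. The remaining 9 called genes changed by less than that.

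**Figure D1:**
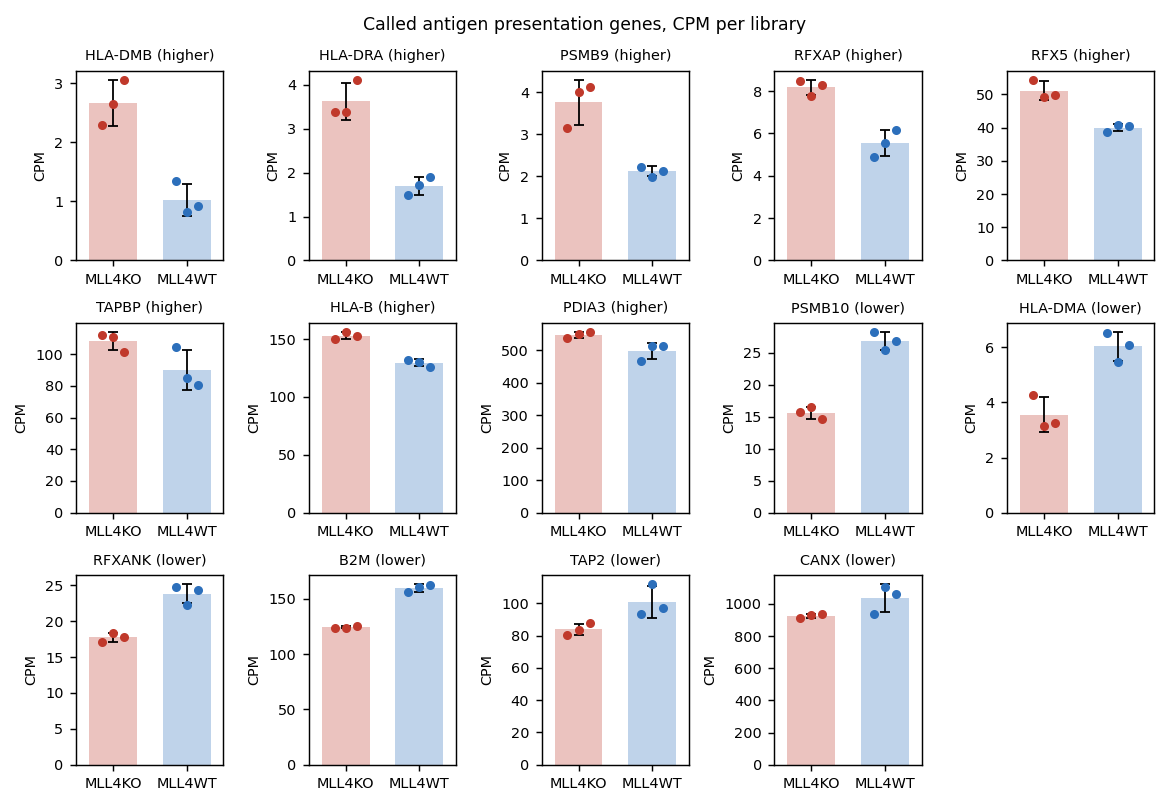
Level of each of the 14 called genes in CPM, with MLL4KO libraries on the left (red) and MLL4WT libraries on the right (blue); points are libraries, bars are means and error bars are SD (n = 3). The groups are apart in every panel but that of TAPBP, where the lowest MLL4KO library (102 CPM) lies under the highest MLL4WT library (104 CPM).

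Among the class I molecules, one heavy chain rose by a small amount while the light chain fell. B2M encodes beta-2-microglobulin, the invariant light chain that every class I heavy chain needs to reach the surface (chromosome 15, 44711487 to 44718877). It was at 124, 124 and 126 CPM in the MLL4KO libraries, against 156, 161 and 163 CPM in the MLL4WT libraries. No MLL4KO library came near the lowest MLL4WT library, and B2M fell 1.29-fold (log2 -0.36 ± 0.04 SE, edgeR adjusted p = 4.59e-05). HLA-B, a classical heavy chain (chromosome 6, 31269491 to 31357188), was at 149.8, 156 and 153 CPM in MLL4KO and 132, 130.1 and 126 CPM in MLL4WT. It rose 1.18-fold (log2 0.24 ± 0.05, edgeR adjusted p = 0.00111). The heavy chain and its light chain thus passed the test in opposite directions.

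HLA-C, the classical heavy chain with the highest level per length of the 5 heavy chain genes listed, was at 302, 292 and 297 CPM in MLL4KO and 273, 282 and 273 CPM in MLL4WT. The groups did not overlap, but the log2 difference of 0.11 ± 0.04 missed the threshold (edgeR adjusted p = 0.0616). It passed in 7 of 16 alternatives, among them without MLL4WT replicate 1 (log2 0.11, edgeR adjusted p = 0.00291), with total-count scaling (log2 0.17, edgeR adjusted p = 0.00524) and, with the highest value, with GC and length trends removed (log2 0.27, edgeR adjusted p = 0.000361). HLA-E, a nonclassical heavy chain read by receptors of natural killer cells, averaged 75.1 ± 1.54 CPM in MLL4KO and 73.9 ± 1.59 CPM in MLL4WT (SD, n = 3 each; edgeR adjusted p = 0.709). HLA-F, another nonclassical chain, averaged 4.18 ± 0.848 CPM in MLL4KO and 5.17 ± 0.640 CPM in MLL4WT, and its groups overlapped (edgeR adjusted p = 0.195). HLA-G, whose product is best known from the placenta, had 5 counts over the MLL4KO libraries and 2 over the MLL4WT libraries, too few to test. HLA genes are highly polymorphic and alike in sequence, so reads of one can be counted for another, and the sources used here do not say how such reads were divided.

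The loading machinery of the endoplasmic reticulum also split. TAP2, a subunit of the peptide transporter (chromosome 6, 32821833 to 32838780), was at 80.5, 83.5 and 87.7 CPM in MLL4KO and 93.3, 112 and 97.1 CPM in MLL4WT. It fell 1.21-fold (log2 -0.27 ± 0.07, edgeR adjusted p = 0.0067), a call that was lost without MLL4KO replicate 1 (edgeR adjusted p = 0.0514). TAP1, which encodes the other subunit of the transporter, was at 45.8, 45.7 and 48.2 CPM in MLL4KO and 49.0, 45.2 and 41.6 CPM in MLL4WT. Its groups overlapped, and it did not pass (log2 0.05 ± 0.07, edgeR adjusted p = 0.549). In the GENCODE annotation 32.3% of the exon bases of TAP2 also belong to AL669918.1 on the same strand.

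TAPBP encodes tapasin, which bridges class I molecules to the transporter (chromosome 6, 33299694 to 33314387). It was at 112, 111 and 102 CPM in MLL4KO and 104, 85.0 and 80.6 CPM in MLL4WT, so that MLL4WT replicate 1 lay within the MLL4KO range. It rose 1.22-fold (log2 0.29 ± 0.09, edgeR adjusted p = 0.0206), and the call was lost without MLL4KO replicate 1 or 2 or MLL4WT replicate 2 or 3 (edgeR adjusted p between 0.079 and 0.0886). PDIA3, the disulfide isomerase of the loading complex, was at 538, 549 and 555 CPM in MLL4KO and 467, 512 and 512 CPM in MLL4WT, and rose 1.10-fold (log2 0.14 ± 0.05, edgeR adjusted p = 0.0362). That call did not hold without any 1 of the MLL4KO libraries (edgeR adjusted p between 0.0619 and 0.112). Of the exon bases of PDIA3, 18.9% are shared with ELL3 and other genes on the opposite strand.

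CANX, the calnexin chaperone of newly made heavy chains, was at 911, 928 and 936 CPM in MLL4KO and 936, 1105 and 1064 CPM in MLL4WT. The genotypes are set apart by less than 1 CPM between MLL4KO replicate 3 and MLL4WT replicate 1, and the 1.12-fold fall (log2 -0.16 ± 0.06, edgeR adjusted p = 0.0387) was lost under total-count or upper quartile scaling and without any library but MLL4WT replicate 1 (edgeR adjusted p between 0.109 and 0.173). CALR, which encodes the chaperone calreticulin, averaged 1018 ± 8.49 CPM in MLL4KO and 1056 ± 99.6 CPM in MLL4WT (edgeR adjusted p = 0.51). Its lowest library was MLL4WT replicate 1, at 941 CPM, and without that library CALR was lower in MLL4KO (log2 -0.12, edgeR adjusted p = 2.62e-05). TAPBPL, which encodes the peptide editor TAPBPR, had 14 counts over the MLL4KO libraries and 5 over the MLL4WT libraries and was not tested. Of the aminopeptidases that trim peptides in the endoplasmic reticulum, ERAP1 averaged 13.5 ± 1.46 CPM in MLL4KO and 14.9 ± 0.549 CPM in MLL4WT, and ERAP2 1.70 ± 0.608 CPM in MLL4KO and 1.13 ± 0.166 CPM in MLL4WT (edgeR adjusted p = 0.299 and 0.243).

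**Figure D2:**
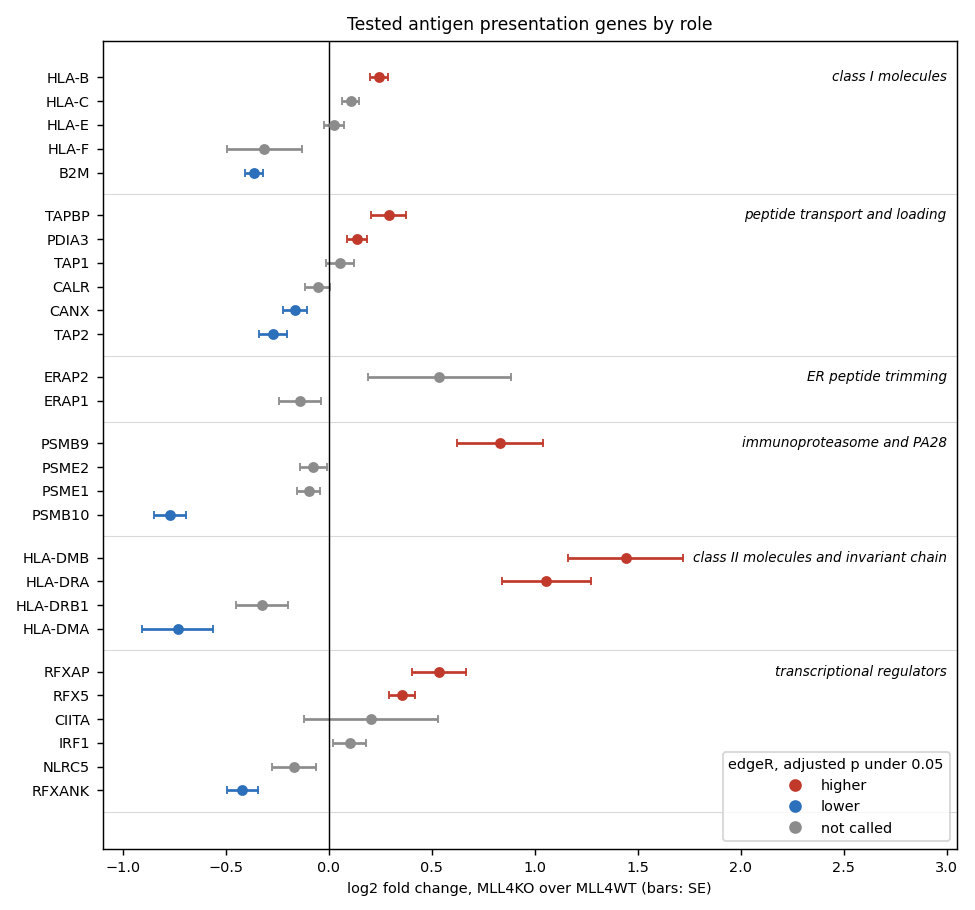
Log2 fold change of MLL4KO over MLL4WT for the 27 tested genes by role, with standard errors; red marks genes called higher, blue genes called lower and grey genes that were not called. Called genes lie on both sides of 0 in every role except peptide trimming, where ERAP1 and ERAP2 did not pass.

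The bases in front of these genes were read for short motifs, since several members are known interferon targets. RefSeq promoter windows (GRCh38.p14) were given for 26 of the 31 genes, and the 250 bases before each start were searched on both strands. The interferon-stimulated response element, searched as GAAA, any 2 bases and GAAA again, was found in 9 of the 26 genes (34.6%), against 3.71% of the 27305 genes with a window. A gene was counted when any of its windows matched. The 26 genes had 40 windows and the 27305 genes 35116, so more bases were searched per member. The 9 genes were B2M, ERAP2, HLA-F, PSMB10, PSME2, RFX5, TAP1, TAP2 and TAPBP, of which 2 rose, 3 fell and 4 were not called. The 30 bases around the match are shown for those that were called and for TAP1, in the direction of the gene, with the matching letters in capitals; overlapping matches run together, and a match on the other strand reads TTTC. The first 3 fell in MLL4KO, the next did not pass and the last ones rose. They lie at chr15:44711363-44711392 (plus strand), chr16:67936852-67936881, chr6:32838778-32838807, chr6:32853819-32853848, chr6:33314079-33314108 and chr1:151347187-151347216 (all minus strand).
B2M: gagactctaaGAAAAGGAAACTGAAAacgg
PSMB10: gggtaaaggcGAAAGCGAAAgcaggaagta
TAP2: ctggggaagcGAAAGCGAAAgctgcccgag
TAP1: aggcggccgcTTTCGATTTCGCTTTCccct
TAPBP: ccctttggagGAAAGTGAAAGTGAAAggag
RFX5: tacgaggtagTTTCTCTTTCtcccttacct

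A match is a run of letters and not a measured binding site.

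The immunoproteasome subunits changed most within the class I pathway, and not together. PSMB10 encodes the subunit that takes the place of PSMB7 (chromosome 16, 67934502 to 67937087). It was at 15.7, 16.5 and 14.6 CPM in MLL4KO and 28.2, 25.4 and 26.8 CPM in MLL4WT, and fell 1.71-fold (log2 -0.77 ± 0.08, edgeR adjusted p = 1.24e-05). Every MLL4KO library was far under every MLL4WT library. Of the annotated exon bases of PSMB10, 34.8% are shared with AC040162.1 on the same strand, and the part of that gene in the counts was not tested. PSMB9, which takes the place of PSMB6 (chromosome 6, 32844136 to 32859585), was at 3.13, 4.01 and 4.12 CPM in MLL4KO and 2.23, 1.99 and 2.13 CPM in MLL4WT. It rose 1.78-fold (log2 0.83 ± 0.21, edgeR adjusted p = 0.00725) from a low level. PSMB8, which replaces PSMB5, had 13 counts over the MLL4KO libraries and 16 over the MLL4WT libraries and was not tested. PSME1 and PSME2, which encode the interferon-inducible activator cap, averaged 57.7 ± 1.92 and 60.1 ± 2.74 CPM in MLL4KO and 61.9 ± 2.83 and 62.8 ± 5.68 CPM in MLL4WT (edgeR adjusted p = 0.189 and 0.398).

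PSMB9 and TAP1 lie on opposite strands, and the RefSeq start of PSMB9 is close to the outermost start of TAP1, from which it is read away. Longer transcripts of PSMB9 in GENCODE start farther off, beyond the far end of TAP1. The exon-free bases before the RefSeq start of PSMB9, chr6:32853979-32854147 on the plus strand (the strand of PSMB9), are shown because one neighbour was called and the other was not. Capitals mark the single match to TGACG, searched as X2-type letters, here on the minus strand.
PSMB9: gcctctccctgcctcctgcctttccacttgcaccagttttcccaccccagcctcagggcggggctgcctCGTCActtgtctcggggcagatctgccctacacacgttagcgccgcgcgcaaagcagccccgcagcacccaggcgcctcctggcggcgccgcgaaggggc

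Because each immunoproteasome subunit displaces a constitutive one, the ratio of each such pair was taken within libraries, as counts per kilobase, which does not depend on library scaling. PSMB9 stood at 9.61, 12.7 and 13.2 per 1000 of PSMB6 in MLL4KO and at 6.97, 5.92 and 6.89 in MLL4WT. The ratio was 1.78-fold higher in MLL4KO (log2 difference 0.83). PSMB10 stood at 65.3, 68.8 and 59.0 per 1000 of PSMB7 in MLL4KO and at 132, 95.8 and 100.6 in MLL4WT, 1.69-fold lower (log2 difference -0.75). In both pairs the libraries of the genotypes were fully apart, which in an exact 2-sided permutation test gives p = 0.1, the smallest that 3 against 3 libraries allow (0.15 adjusted over the 3 ratios). PSMB8 stood at 0.754, 0.572 and 1.05 per 1000 of PSMB5 in MLL4KO and at 0.834, 1.51 and 0.897 in MLL4WT, with overlapping groups (exact permutation p = 0.4). In RNA, all 3 immunoproteasome subunits were therefore minor next to their counterparts in both genotypes. The merged exon lengths of PSMB8 and PSMB9 (2997 and 3072 bases) exceed those of PSMB5 and PSMB6 (1765 and 1448 bases). This puts the ratios of these 2 pairs below those of plain counts, in both genotypes alike.

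**Figure D3:**
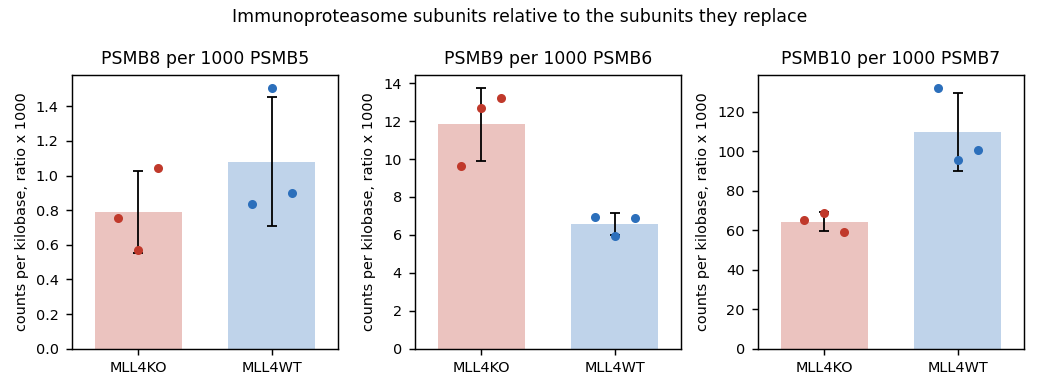
Counts per kilobase of each immunoproteasome subunit per 1000 of the constitutive subunit it replaces, MLL4KO on the left (red) and MLL4WT on the right (blue); points are libraries, bars are means and error bars are SD (n = 3). The PSMB9 ratio is higher and the PSMB10 ratio lower in all 3 MLL4KO libraries, and the PSMB8 ratio overlaps.

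The class II genes averaged at most 10.3 CPM (HLA-DRB1 in MLL4WT) and held the largest changes of the pathway. HLA-DMB encodes the beta chain of HLA-DM, the catalyst of class II peptide exchange (chromosome 6, 32934629 to 32941070). It was at 2.29, 2.65 and 3.06 CPM in MLL4KO and 1.34, 0.823 and 0.919 CPM in MLL4WT, and rose 2.71-fold (log2 1.44 ± 0.28, edgeR adjusted p = 0.00143) on 135 counts over the MLL4KO libraries and 37 over the MLL4WT libraries. HLA-DMA, the alpha chain of the same dimer (chromosome 6, 32948613 to 32969094), was at 4.28, 3.14 and 3.26 CPM in MLL4KO and 6.54, 5.49 and 6.09 CPM in MLL4WT. It fell 1.67-fold (log2 -0.74 ± 0.17, edgeR adjusted p = 0.00447). The partner chains of HLA-DM thus passed the test in opposite directions, with no overlap between the genotypes in either. Of their annotated exon bases, 9.41% of HLA-DMB and 9.04% of HLA-DMA are shared with other genes, mostly with AL645941.2, which runs over both on the same strand.

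HLA-DRA, the alpha chain of HLA-DR (chromosome 6, 32439842 to 32445046), was at 3.38, 3.39 and 4.12 CPM in MLL4KO and 1.49, 1.71 and 1.90 CPM in MLL4WT, and rose 2.08-fold (log2 1.06 ± 0.21, edgeR adjusted p = 0.00197). Its beta chain partner HLA-DRB1 was at 9.05, 8.44 and 7.38 CPM in MLL4KO and 9.36, 10.1 and 11.4 CPM in MLL4WT. The groups did not overlap, but the log2 difference of -0.33 ± 0.12 missed the threshold (edgeR adjusted p = 0.054); leaving out MLL4WT replicate 1 brought it under (edgeR adjusted p = 0.0165). CD74, the invariant chain that guides class II molecules to the endosome and is normally far more abundant in antigen-presenting cells, had 22 counts over the MLL4KO libraries and 17 over the MLL4WT libraries and was not tested. In bulk RNA, more cells with a transcript and more transcript per cell cannot be told apart. Leukocyte markers were near 0 in both genotypes: none of the 9 listed had enough counts to be tested, MS4A1 was at 0 in every library, and their summed level was 2.14 to 2.59 CPM in MLL4KO and 1.55 to 2.61 CPM in MLL4WT.

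The stretches before HLA-DMB and HLA-DMA are shown because these neighbours moved in opposite directions. They cover the part of the 250 bases before the RefSeq start that is free of annotated exons, chr6:32941071-32941278 and chr6:32953123-32953347, both on the minus strand and written in the direction of the gene. Capitals mark matches to TGACG, to AGCAAC and to CCAAT (the letters of the Y box bound by NF-Y, here seen as ATTGG). They also mark the longest run of letters that both windows share, ACTGATGATG. TGACG and AGCAAC were searched as X2-type and X1-type letters. Their matches do not place the X box of either gene, which was not located here. The window of HLA-DMB also holds a CCAAT match, which lies nearer its start, outside the bases shown.
HLA-DMB: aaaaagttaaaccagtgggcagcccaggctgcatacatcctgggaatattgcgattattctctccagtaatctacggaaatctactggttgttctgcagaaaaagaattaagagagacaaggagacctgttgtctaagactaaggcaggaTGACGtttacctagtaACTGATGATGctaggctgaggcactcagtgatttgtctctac
HLA-DMA: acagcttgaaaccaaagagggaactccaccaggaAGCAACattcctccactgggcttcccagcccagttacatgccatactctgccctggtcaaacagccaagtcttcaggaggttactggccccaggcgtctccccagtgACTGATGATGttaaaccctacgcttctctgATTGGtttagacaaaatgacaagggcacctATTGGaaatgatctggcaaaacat

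The shared run of 10 letters begins 84 bases before the start of HLA-DMB and 109 bases before that of HLA-DMA. It was found in 25 of all 35116 windows (0.0712%), and among the 26 genes with a window also in that of HLA-DRB1. The run was picked after the sequences were seen. CCAAT was found in 16 of the 26 genes with a window (61.5%, against 37.0% of all genes), TGACG in 11 (42.3%, against 24.9%) and AGCAAC in 5 (19.2%, against 12.5%). Here too a gene was counted when any of its windows matched, and the members had more windows per gene. Of the genes holding CCAAT, 4 rose, 3 fell, 7 were not called and 2 were not tested. For TGACG, 5 rose, 3 fell, 2 were not called and 1 was not tested. For AGCAAC, 1 rose, 2 fell, 1 was not called and 1 was not tested. Beside these counts, 51.9% of the tested members and 41.4% of all tested genes were called. A link between a motif and the changes was not tested.

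The RFX complex changed in all 3 of its subunits, whereas the coactivators it recruits did not pass the test. RFX5, the DNA-binding subunit (chromosome 1, 151340640 to 151347357), was at 54.5, 49.1 and 49.9 CPM in MLL4KO and 38.8, 40.7 and 40.4 CPM in MLL4WT. It rose 1.28-fold (log2 0.35 ± 0.06, edgeR adjusted p = 0.000813). RFXAP, the RFX-associated protein (chromosome 13, 36819224 to 36829104), was at 8.46, 7.76 and 8.31 CPM in MLL4KO and 4.90, 5.56 and 6.15 CPM in MLL4WT, and rose 1.45-fold (log2 0.54 ± 0.13, edgeR adjusted p = 0.00595). RFXANK, the ankyrin-repeat subunit (chromosome 19, 19192229 to 19201869), was at 17.1, 18.3 and 17.8 CPM in MLL4KO and 24.8, 22.3 and 24.4 CPM in MLL4WT, and fell 1.34-fold (log2 -0.42 ± 0.08, edgeR adjusted p = 0.000878). None of these 3 genes had overlapping groups. Of the exon bases of RFXANK, 23.3% are shared with BORCS8 and NR2C2AP on the opposite strand, and the labels do not say that the counting used strand.

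NLRC5, the class I coactivator, was at 14.2, 14.7 and 12.4 CPM in MLL4KO and 17.7, 14.7 and 14.9 CPM in MLL4WT (log2 -0.17 ± 0.11, edgeR adjusted p = 0.22). CIITA, the class II coactivator, was detected at 1.04, 1.60 and 1.46 CPM in MLL4KO and 0.892, 1.51 and 1.03 CPM in MLL4WT (log2 0.20 ± 0.32, edgeR adjusted p = 0.647), and 23.4% of its annotated exon bases are shared with DEXI and other genes. IRF1, an interferon-induced activator of class I genes, averaged 21.1 ± 0.938 CPM in MLL4KO and 19.9 ± 1.41 CPM in MLL4WT (log2 0.10 ± 0.08, edgeR adjusted p = 0.337). The standard error of CIITA is wide enough that a change of the size seen in RFXAP was not detectable at this depth.

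Levels per length spanned a wide range, with the chaperones at the top and genes such as CIITA, CD74 and PSMB8 near the bottom. CALR stood at 375 ± 3.13 CPM per kilobase of merged exons in MLL4KO and 389 ± 36.7 in MLL4WT, followed by CANX at 148 ± 2.01 and 166 ± 14.1, PDIA3 at 129 ± 2.07 and 117 ± 6.16, and HLA-C at 118 ± 2.13 and 110.1 ± 2.17. HLA-B stood at 50.2 ± 1.07 CPM per kilobase in MLL4KO and 42.5 ± 0.997 in MLL4WT, above B2M at 20.5 ± 0.163 in MLL4KO and 26.3 ± 0.566 in MLL4WT. The merged exon length of B2M, 6079 bases, counts every annotated transcript and lowers its value on this scale. The same holds for CIITA, at 20757 bases. Per kilobase CIITA lies under CD74, but in CPM it averaged 1.37 in MLL4KO and 1.14 in MLL4WT, against 0.432 and 0.412 for CD74. HLA-DRB1 was at 6.75 ± 0.689 CPM per kilobase in MLL4KO and 8.37 ± 0.854 in MLL4WT, above HLA-DRA at 2.84 ± 0.332 in MLL4KO and 1.33 ± 0.160 in MLL4WT. CD74 lay at 0.136 ± 0.0106 CPM per kilobase in MLL4KO and 0.129 ± 0.0315 in MLL4WT, under both HLA-DR chains.

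**Figure D4:**
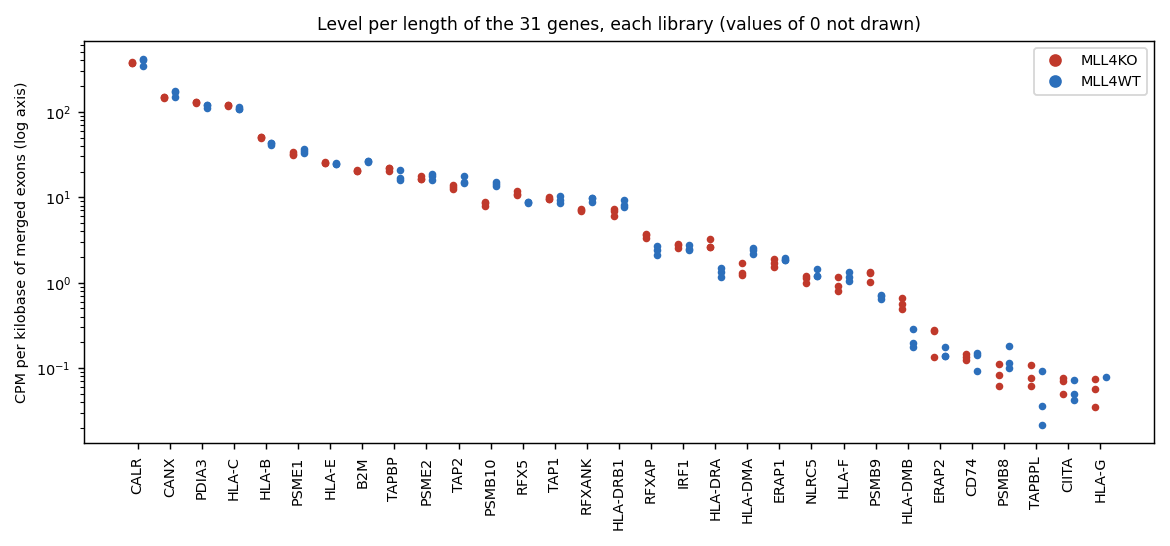
CPM per kilobase of merged exons (log axis) of the 31 genes, ordered by mean level, in each MLL4KO library (red, left of each pair) and each MLL4WT library (blue, right); libraries at 0 are not drawn. CALR, CANX, PDIA3 and HLA-C lead, and HLA-DMB, ERAP2, CD74, PSMB8, TAPBPL, CIITA and HLA-G lie lowest.

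Many of these genes sit in the MHC itself, so their neighbours there were described too. Between the outermost members on chromosome 6 (29722775 to 33314387), which hold 14 of the 31 genes, 122 genes were tested. The 110 of them that are not members had a median log2 fold change of -0.13, with 7 higher (6.36%) and 31 lower (28.2%). Of the members within this stretch, HLA-B, TAPBP, PSMB9, HLA-DMB and HLA-DRA rose, and TAP2 and HLA-DMA fell.

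Outside the 31 genes, lists of connected genes were read in the same fit. Of 16 genes of interferon receptors and signalling, 9 rose (19.8% of all tested genes were called higher) and 7 did not pass, with a median log2 fold change of 0.20. IFNAR2, a type I interferon receptor chain, averaged 34.3 ± 2.22 CPM in MLL4KO and 15.9 ± 1.91 CPM in MLL4WT, and rose 2.12-fold (edgeR adjusted p = 2.18e-06). IFNAR1, the other chain, averaged 100.9 ± 1.55 CPM in MLL4KO and 67.8 ± 2.56 CPM in MLL4WT, and rose 1.49-fold (edgeR adjusted p = 3.88e-06). Both lie on chromosome 21 with IFNGR2, and 68.0% of the 147 tested genes of that chromosome were called higher, with a median log2 fold change of 0.51. The part of the chromosome in these changes was not tested. Of the 13 genes of the list on other chromosomes, 6 rose, including the signal transducer STAT2 (1.47-fold, edgeR adjusted p = 7.67e-05).

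Of 12 tested genes from the rest of the class II pathway, 3 were called higher and 5 lower (19.8% and 21.6% of all tested genes), at a median log2 fold change of -0.33. MARCHF8, a ubiquitin ligase that removes class II molecules from the surface, rose 1.44-fold and the endosomal protease CTSD 1.31-fold (edgeR adjusted p = 0.000149 and 0.00039). The protease CTSB fell 1.20-fold and the lysosomal thiol reductase IFI30 1.25-fold (edgeR adjusted p = 0.0011 and 0.0051). The class II chain genes HLA-DOA and HLA-DPA1 fell by more, 2.57-fold and 1.75-fold (edgeR adjusted p = 0.0213 and 0.0168). Their counts were low, at 37 and 81 over the MLL4KO libraries and 68 and 109 over the MLL4WT libraries. HLA-DPB1, HLA-DQB1 and HLA-DRB5 of the same list did not pass. Of 13 genes of translocation and folding in the endoplasmic reticulum, 1 rose (SEC62, 1.16-fold), 3 fell and 9 did not pass. The called share of this list was 30.8%, beside 41.4% of all tested genes. P4HB, a protein disulfide isomerase, averaged 789 ± 18.6 CPM in MLL4KO and 1267 ± 18.0 CPM in MLL4WT, a 1.60-fold fall (edgeR adjusted p = 2.24e-07), and MOGS, which trims N-glycans, fell 1.25-fold (edgeR adjusted p = 0.00069).

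Of 10 tested class I-like and stress ligand genes, HFE rose 1.56-fold (9.50 ± 0.537 CPM in MLL4KO and 6.11 ± 0.171 CPM in MLL4WT, edgeR adjusted p = 0.000962), while MR1, which presents vitamin B metabolites, fell 1.35-fold and PROCR 1.18-fold (edgeR adjusted p = 0.00628 and 0.0103). The remaining 7, among them the NKG2D ligands MICA and MICB, did not pass. Among 8 cytosolic and other peptidases, THOP1 fell 1.39-fold and IDE 1.21-fold (edgeR adjusted p = 3.12e-05 and 0.00196), and NPEPPS rose 1.09-fold (edgeR adjusted p = 0.0466), a call that was lost in 9 of 16 alternatives, with the direction turned (log2 -0.028) once GC and length trends were removed. Of 5 constitutive proteasome and activator genes, PSMB5 fell 1.14-fold and PSME3 1.18-fold (edgeR adjusted p = 0.00605 and 0.00098). Of 7 DNA-binding partners at MHC promoters, CREB1 and NFYB each rose 1.18-fold and NFKB1 fell 1.10-fold (edgeR adjusted p = 0.00666, 0.0182 and 0.0469). The calls of CREB1, NFYB, PSMB5, SEC62 and PROCR were lost with GC and length trends removed, and that of NFKB1 in 13 of 16 alternatives. The called share was 30% of the tested class I-like and stress ligand genes and 37.5% of the peptidases. It was 40% of the proteasome and activator genes and 42.9% of the DNA-binding partners. All of these were near or under the 41.4% of all tested genes.

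**Figure D5:**
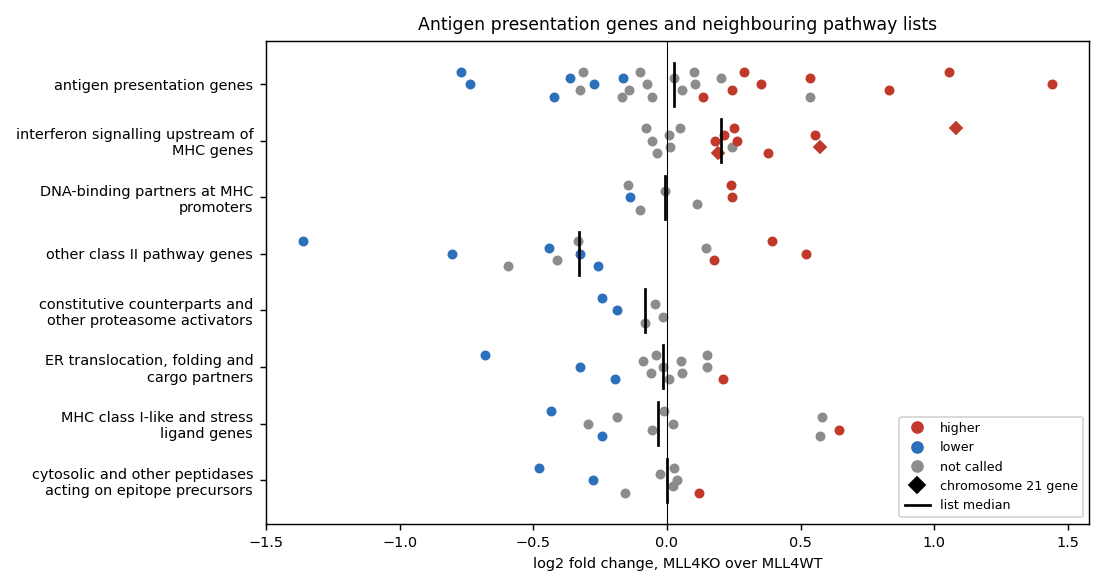
Log2 fold change of MLL4KO over MLL4WT for each tested gene of the antigen presentation set (top row) and of the connected lists; red marks genes called higher, blue genes called lower, grey genes not called, diamonds genes of chromosome 21, and the black bar the list median. The antigen presentation genes spread to both sides of 0, and the interferon signalling list lies mostly to the right, with a median of 0.20.

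Codes in the column names put MLL4KO replicate 1 with MLL4WT replicate 3, MLL4KO replicates 2 and 3 with MLL4WT replicate 2, and MLL4WT replicate 1 alone. The 14 called genes were all also called without that library. They had the same direction within both shared codes, with log2 differences of 0.97 and 1.34 for HLA-DMB, 0.70 and 0.94 for HLA-DRA, 0.47 and 0.87 for PSMB9, -0.76 and -0.69 for PSMB10 and -0.46 and -0.69 for HLA-DMA.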

How the data were processed

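Poly(A)-selected RNA of 6 HCT116 libraries, 3 of each genotype, was counted by the authors. The authors deposited estimated counts (expected counts in another usage) as whole numbers for 59715 Ensembl genes; the deposited table is named as raw, and its library totals differ. Salmon 1.8.0, DESeq2 1.44.0 and hg38 are named in the submitters' processing notes without role; the annotation release and strand setting are not given in the sources used here. No column was left out. Symbols were matched by gene ID, and places, exon lengths, GC and overlaps from GENCODE 29 on GRCh38.

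Genes were filtered with filterByExpr, scaled by TMM and compared with the quasi-likelihood test of edgeR 4.0.16 in R 4.3.3 (robust, no covariate, 4 residual degrees of freedom), with Benjamini-Hochberg adjustment over all 14543 tested genes, which hold 99.9% of the counts. A call is an adjusted p under 0.05. Standard errors come from the F statistic. CPM uses the same scaling. The floor for a count of 0 is 3 counts, 0.439 CPM in the shallowest library, and limits here cover counting error only. Within column codes, log2 of CPM plus 0.5 was used. The test was checked on simulated counts.

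The 31 genes and the connected lists were chosen with earlier results of these data known. All 31 are described. Of each list, up to 2 rises and 2 falls with the smallest adjusted p are named. STAT2, MICA, MICB, IFNGR2, HLA-DOA, HLA-DPA1, HLA-DPB1, HLA-DQB1 and HLA-DRB5 were added after their values were seen. Alternatives were RLE, total-count and upper quartile scaling, no filter and a stricter one (at least 1 CPM in every library of a group), the DESeq2 1.42.0 Wald test, limma-voom (limma 3.58.1), a replicate block, a term for the column codes, removal of GC and length trends by lowess (span 0.3), and leaving out each library.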

Additional observations from a re-analysis of the deposited data

How the results depend on the processing

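Of the 14 called antigen presentation genes, 10 were called in all 16 alternatives and 4 (TAP2, TAPBP, CANX and PDIA3) lost the call in at least 1; none of the 14 changed direction. Of the 13 tested genes that were not called, 5 passed in at least 1 alternative (HLA-C, HLA-E, CALR, PSME2 and HLA-DRB1). Genes called higher numbered 8 to 10 and genes called lower 5 to 9 across scalings, filters, tests and covariates, with 10 higher and 6 lower once GC and length trends were removed and 9 of each with a term for the column codes. Leaving out 1 library gave 6 to 9 higher and 4 to 8 lower, the most without MLL4WT replicate 1, and 4479 to 7343 genes called overall. Over all genes, the split of 2885 higher and 3136 lower became 3706 and 2394 with total counts and 3561 and 2475 with upper quartile factors, with the median log2 fold change at 0.06 and 0.05. NPEPPS had a log2 fold change of -0.028 with GC and length trends removed, the one change of direction among the called genes followed through the alternatives. The cause was not tested. STAT2, IFNGR2, HLA-DOA and HLA-DPA1 were not followed in this way. The immunoproteasome ratios kept their direction without each library, with log2 differences of 0.75 to 0.98 for PSMB9 over PSMB6, -0.84 to -0.61 for PSMB10 over PSMB7 and -0.67 to -0.17 for PSMB8 over PSMB5.

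Same-numbered libraries of the genotypes did not visibly deviate together (correlations of 0.02, 0.03 and -0.01 for numbers 1 to 3). With deviations taken from means of 3 libraries, this cannot decide whether the numbers pair the samples. With the replicate block, 5713 genes were called against 6021, and 8 antigen presentation genes higher and 6 lower as without it. For the ratios the block leaves the log2 difference as it is by construction (0.83 for PSMB9 over PSMB6). Depth limits HLA-G, TAPBPL, PSMB8 and CD74, which were not tested, and CIITA, ERAP2 and HLA-F, whose standard errors exceed 0.18. The standard errors of the called genes HLA-DMB (0.28), HLA-DRA (0.21) and PSMB9 (0.21) exceed 0.18 as well, so the sizes of these changes are also less certain.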
